A study of Mus musculus with 6 samples.

Results

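The 300 largest clusters of accessible regions away from promoters in untreated MLL-AF9 leukemia stem cells (LSCs) were taken from the ATAC-seq peak lists of the 3 control samples. ATAC-seq marks open chromatin by the places where the Tn5 transposase can cut. An element was a stretch of bases under a peak in all 3 control lists, at least 1000 bp from any protein-coding start of GENCODE M21. Elements with gaps of at most 12.5 kb were joined, and the clusters on chromosomes 1 to 19 were ranked by the bases of their elements. The 32609 elements gave 20537 clusters, and the 300 with the most bases, 1.46% of all clusters, are described here. They held 1891 elements (5.80% of all) and 664 kb of element bases (7.87% of 8.43 Mb). The values of the control lists chose these clusters, so their size in those lists is a description and carries no test.

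The samples were sorted leukemic granulocyte-macrophage progenitors (L-GMPs), labelled as wild type in genotype, from a mouse leukemia driven by the MLL-AF9 fusion. The cells grew in RPMI1640 with 20% FBS and 10 ng/ml mouse IL3 in both groups. The MMF group of 3 samples was treated with mycophenolate mofetil (MMF) for 24 h by the labels. The control group of 3 samples was not given MMF, and the labels name no vehicle for it. By the methods, the compounds of the study were dissolved in DMSO as a rule. The study's methods and one of its legends give different doses and times for MMF, so no dose is given here. The study describes its replicates in general as biologically independent, but the sources do not say whether the 3 ATAC-seq samples of a group came from separate cultures or mice, so the spread between them may be technical.

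Regulatory regions far from promoters often lie in groups, and long groups of open regions tend to surround genes that define a cell type. Dense groups of open chromatin also arise where small RNA genes lie side by side. RNA polymerase III reads tRNA genes and 5S rRNA genes from promoters inside the genes, and the tRNA promoter has 2 parts, the A box and the B box. MMF is turned into mycophenolic acid, which blocks IMP dehydrogenase and so the synthesis of guanine nucleotides.

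Of the markers by which L-GMPs are sorted, the promoter of Kit, the receptor for stem cell factor, had a peak in all 6 lists. The promoter of Cd34 had a peak in 3 control lists and 2 MMF lists, and that of Fcgr3, which encodes an Fc receptor, in 1 control list and 3 MMF lists. Of 10 B cell markers 8 had a promoter peak in no list, as had 7 of 12 T and NK cell markers, 4 of 12 erythroid and megakaryocyte markers and 7 of 14 non-blood markers. In the same order, 1, 4, 5 and 4 of these markers had a promoter peak in all control lists. Of 21 genes of mature granulocytes and monocytes, 12 had a promoter peak in all control lists and 15 in all MMF lists, and 4 had one in no list. Their summed promoter reads, as multiples of the background of a sample, were 545 to 605 in the control samples and 803 to 880 in the MMF samples. For the erythroid and megakaryocyte markers these sums were 421 to 467 and 412 to 449. The part of these mature myeloid markers in the differences given here was not tested. In bulk samples, a change in the share of open cells and a change of openness per cell cannot be told apart.

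To show what the clusters hold, 200 bases of the reference genome (GRCm38.p6, + strand) around the highest control summit are printed for 1 element each of 9 clusters. Capitals mark letters of the motifs searched, which are spelled out with the motif results. The elements are the strongest by mean fold enrichment in the control lists, except that the Fcgr3 element is the strongest with B box letters and the Thbs1 element the one with the largest rise with MMF.
Fcgr3 cluster, rank 1, over the RefSeq tRNA gene n-TDgtc5 between coding genes, chr1:171102241-171102440: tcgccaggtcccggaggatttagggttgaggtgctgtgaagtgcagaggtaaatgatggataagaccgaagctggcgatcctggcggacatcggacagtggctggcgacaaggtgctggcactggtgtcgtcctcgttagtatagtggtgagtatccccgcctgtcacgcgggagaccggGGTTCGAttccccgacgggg
Tex14 cluster, rank 8, at the U3 snRNA gene Rnu3b2 within an intron of Tex14, chr11:87471482-87471681: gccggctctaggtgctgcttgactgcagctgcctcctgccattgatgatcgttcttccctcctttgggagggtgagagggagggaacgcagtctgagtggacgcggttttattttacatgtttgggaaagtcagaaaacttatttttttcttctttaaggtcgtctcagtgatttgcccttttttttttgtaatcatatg
Zfp36l2 cluster, rank 15, between coding genes and within the lncRNA gene Gm19696, chr17:84148924-84149123: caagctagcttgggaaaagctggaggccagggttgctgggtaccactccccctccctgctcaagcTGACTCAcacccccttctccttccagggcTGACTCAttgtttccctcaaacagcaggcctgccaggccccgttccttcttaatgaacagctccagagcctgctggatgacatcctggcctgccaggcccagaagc
Cd47 cluster, rank 19, between genes, chr16:49783497-49783696: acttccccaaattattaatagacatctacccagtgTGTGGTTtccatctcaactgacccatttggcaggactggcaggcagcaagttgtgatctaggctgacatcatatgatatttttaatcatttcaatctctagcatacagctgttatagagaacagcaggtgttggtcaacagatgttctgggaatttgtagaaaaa
Thbs1 cluster, rank 42, between coding genes and within the lncRNA gene Gm13986, chr2:117996772-117996971: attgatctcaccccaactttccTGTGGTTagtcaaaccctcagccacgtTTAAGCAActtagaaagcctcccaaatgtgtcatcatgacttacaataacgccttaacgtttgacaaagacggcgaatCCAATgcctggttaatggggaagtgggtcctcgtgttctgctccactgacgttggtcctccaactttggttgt
Cebpb cluster, rank 62, between genes, chr2:167753980-167754179: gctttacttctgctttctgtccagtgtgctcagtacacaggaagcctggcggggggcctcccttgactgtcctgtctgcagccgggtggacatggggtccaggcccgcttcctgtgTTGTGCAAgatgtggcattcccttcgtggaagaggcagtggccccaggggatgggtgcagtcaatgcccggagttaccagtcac
Cdk6 cluster, rank 141, in an intron of Cdk6, chr5:3502701-3502900: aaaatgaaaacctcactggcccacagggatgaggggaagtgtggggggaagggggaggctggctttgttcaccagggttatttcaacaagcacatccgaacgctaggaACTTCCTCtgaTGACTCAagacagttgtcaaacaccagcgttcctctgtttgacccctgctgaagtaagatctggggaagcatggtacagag
Itgb2 cluster, rank 232, with its midpoint in an intron of Itgb2, chr10:77551045-77551244: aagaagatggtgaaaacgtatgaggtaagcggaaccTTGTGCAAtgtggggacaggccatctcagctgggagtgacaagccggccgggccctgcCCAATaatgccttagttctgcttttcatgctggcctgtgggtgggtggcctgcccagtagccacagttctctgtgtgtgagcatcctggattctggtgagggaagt
Slpi cluster, rank 248, in an intron, chr2:164372746-164372945: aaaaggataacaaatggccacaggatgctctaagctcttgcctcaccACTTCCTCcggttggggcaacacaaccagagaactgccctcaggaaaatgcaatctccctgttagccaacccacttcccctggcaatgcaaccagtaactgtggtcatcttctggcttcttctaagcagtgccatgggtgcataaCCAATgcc
The Fcgr3 element held the B box letters, the Thbs1 element RUNX, C/EBP and NF-Y letters, the Cdk6 element PU.1 and AP-1 letters close together, and the Zfp36l2 element AP-1 letters at 2 places.

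The 300 clusters held 1 to 36 elements with a median of 6, and 2 of them were single elements, against 66.3% of all clusters. Their element bases ran from 1578 to 8340 bp with a median of 1907.5 bp, and the spans had a median of 29.5 kb. Single elements were also longer than outside, with a median of 268 bp against 214 bp. By their midpoints, 60.1% of the elements lay between genes, 37.7% in introns and 2.22% in exons of coding genes. Outside the 300 clusters these shares were 48.7%, 46.8% and 4.49%. The size fell off without a step at the limit. The clusters at Meaf6, Stoml1 and Clec4n, with 1580, 1579 and 1578 bp, were the last inside, and those at Tnks, Olfr161 and Ndst1, with 1575 bp each, were the first outside.

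**Figure D1:**
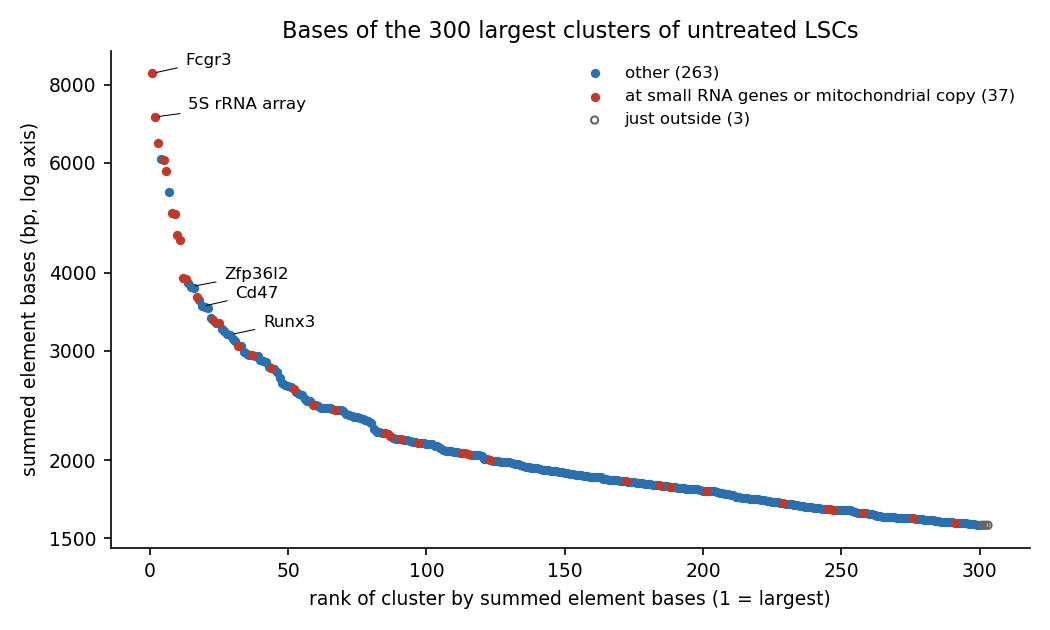
Summed element bases (y axis, bp, log scale) of the 300 clusters against their rank (x axis), with clusters at small RNA genes or mitochondrial copies in red, other clusters in blue and the 3 clusters just outside the limit as open circles. The 37 red clusters are 8 of the largest 10, and the curve runs flat at 1578 bp at the limit.

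The largest clusters went against the name enhancer cluster. In 37 of the 300, at least 50% of the element bases lay within 1000 bp of a tRNA, rRNA or other small RNA gene, or were a nuclear copy of mitochondrial DNA. These 37 are called small RNA clusters here. They were 8 of the largest 10 clusters, 12 of the largest 20 and 17 of the largest 50, and 171 of all 20537. Of the 211 tRNA elements of the genome, 134 (63.5%) lay in the 300 clusters, where they took up 8.57% of the bases against 1.16% over all elements. The split was made after the members had been seen.

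The largest cluster, chr1:171064053-171118799, ran over the coding genes Fcgr3 and Cfap126 and held 14 elements with 8340 bp. RefSeq places 20 tRNA genes there. Rank 2 was the 5S rRNA array, chr8:123538538-123629226, which lies in the long read-through gene Gm20388 and held 36 elements with 7101 bp. Rank 5 at Abt1 and Btn1a1 held 21 tRNA genes, rank 13 near Zfp184 held 16 and rank 17 near Gpx5 held 8, all on chromosome 13. Rank 3 near Eapp and rank 9 near Mreg held 6 and 4 snRNA genes, and rank 8 in Tex14 held 5 snRNA genes, 4 of them copies of U3 (Rnu3b1 to Rnu3b4), a guide of rRNA processing. Rank 11 near Hfe2 had 6 tRNA genes and rank 12 at Armh1 had 3 snRNA genes. Ranks 6 and 10 were single elements, a copy of rDNA at chr17:39842974-39848800 and a copy of mitochondrial DNA at chr1:24611562-24616161, and reads of such copies and of the sequence they stem from cannot be told apart. Their summits stood 10304 ± 291 and 8337 ± 90 times over background (SD, n = 3), so sums over reads are given as medians.

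The other 8 of the largest 20 clusters were not small RNA clusters by this rule and are named by coding genes. Rank 4 near Pdia4, a chaperone of the endoplasmic reticulum, also held the Y RNA genes Rny1 and Rny3. Rank 7 had Ezh2, the catalytic subunit of Polycomb complex 2, as its nearest start at a distance of 55.7 kb, and held the small RNA gene Rn4.5s. Ranks 4 and 7 are classed by annotated small RNA genes only, and their summit reads, given below, were as high as those of small RNA clusters. Rank 14 lay at Lrrc8d, a subunit of volume-regulated anion channels, rank 16 near Spen, a transcriptional corepressor, and rank 18 near Ptma, which encodes prothymosin. Rank 15 lay 20.3 kb from Zfp36l2, which encodes a protein that promotes decay of mRNAs, and had 18 elements. Rank 19 ran over Cd47, the surface signal that restrains phagocytosis, with 11 elements, and rank 20 lay near Rps6ka1, an S6 kinase of the RAS pathway.

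Peaks in the 300 clusters were more numerous with MMF. The spans held 1968, 1977 and 1975 peaks in the control lists and 2158, 2162 and 2081 in the MMF lists, so the groups did not overlap and the mean was 8.13% higher. The bases under these peaks were 817 ± 8.77 kb in the controls and 854 ± 38.8 kb with MMF (SD, n = 3 per group), a difference of 4.53%. The MMF lists were longer as a whole, with 67952 ± 2927 peaks away from starts against 46756 ± 2482 (two-sided exact permutation test, p = 0.1, and 3 against 3 samples allow none smaller). The share of all such peaks that lay in the 300 clusters was therefore lower, 3.14% ± 0.0706 against 4.23% ± 0.234. The background of a library, the reads expected in 150 bp across the genome, was 0.620 to 0.729 in the controls and 0.676 to 0.909 in the MMF samples (exact permutation p = 0.5). These reads and the precision they give cover counting error only.

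In what follows, a value is called higher (or risen) where all 3 MMF samples lie above all 3 control samples, and lower (or fallen) in the reverse case. With 3 against 3 samples no such call on 1 cluster can go below p = 0.1 in an exact permutation test. Counted by cluster, the number of peaks was higher in all MMF lists than in all control lists in 32 of the 300 clusters and lower in 4. Over all 20537 clusters, 1.27% were higher and 0.828% lower in this way. The bases under peaks were higher in 62 clusters and lower in 27, against 5.24% and 8.42% of all clusters. By the rank of a cluster among all clusters, with 1 as the largest in a list, 24 rose and 59 fell, against 37.8% and 8.55% of all clusters. The shares over all clusters are not like for like. Of all clusters 66.3% are single elements, whose span the control peaks set, so peaks and bases there can hardly be higher. The largest clusters in turn have little room to rise in rank. Nothing is read from these contrasts. With lists cut to the same length, the 57308 peaks with the highest −log10 p in each, the split turned for 2 measures: 6 clusters had more peaks and 16 fewer, 29 had more bases and 39 fewer, and 24 rose and 47 fell in rank.

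Scaled summit reads, a measure added after the lists had been seen, were taken on each element from the peak with the highest fold enrichment. They are multiples of the background of the sample, averaged over the elements of a cluster. An element without a peak in a list counted as 0. All elements had a peak in the control lists by construction. In the MMF lists 97.1% did in the other clusters and 96.1% in small RNA clusters, so the zeros lower the MMF values only. Scaled summit reads were higher with MMF in 135 clusters and lower in 42. Of all clusters, 38.6% were higher and 5.08% lower. With lists of equal length these counts were 122 and 45. The balance turned under 2 other rules for the clusters, to 57 higher and 80 lower with nothing dropped around starts and to 66 higher and 72 lower with gaps of 5 kb.

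The small RNA clusters and the others differed in direction in bases and in summit reads, but not in the number of peaks, and the difference between the 2 classes was not tested. The small RNA clusters held 248, 245 and 249 peaks in the controls and 251, 250 and 255 with MMF, and the others 1720, 1732 and 1726 against 1907, 1912 and 1826, so both classes held more peaks. In the 37 small RNA clusters the peaks covered 137, 136 and 135 kb in the controls and 130.4, 122 and 121 kb in the MMF lists. In the other 263 clusters they covered 688, 681 and 673 kb in the controls and 768, 716 and 705 kb with MMF. The samples of the 2 groups did not overlap in either class. Bases were lower without overlap in 16 of the 37 and higher in 2, while in the other 263 clusters they were lower in 11 and higher in 60. Summit reads were lower in 27 and higher in 4 of the 37, and lower in 15 and higher in 131 of the 263. In summit reads 29 of the 134 small RNA clusters outside the 300 were lower and 29 higher (21.6% each). Of all clusters outside the 300, 4.95% were lower and 38.5% higher in summit reads. In bases 17 of the 134 small RNA clusters (12.7%) were lower and 6 (4.48%) higher, the same direction as in the 37. All clusters outside the 300 also leaned this way in bases, with 8.42% lower and 5.02% higher.

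The median element of the small RNA clusters had scaled summit reads of 70.0, 66.5 and 67.7 in the controls and 58.3, 59.5 and 59.1 with MMF. The median element of the other clusters went from 37.0, 37.6 and 38.7 to 45.1, 46.7 and 45.8, a rise of 21.5%, and the median element outside the 300 clusters rose by 29.5%, from 23.6 ± 0.559 to 30.5 ± 0.838.

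**Figure D2:**
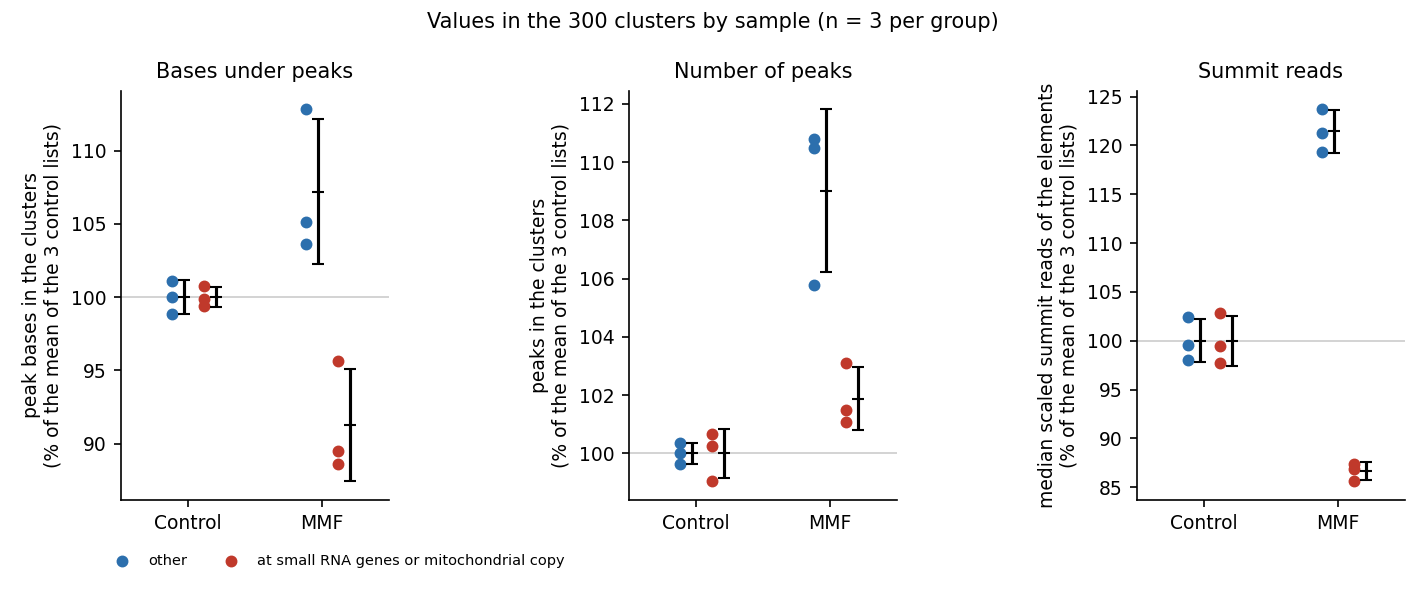
Bases under peaks, number of peaks and median scaled summit reads of the elements in the 300 clusters for each sample (y axes, percent of the mean of the 3 control samples), with small RNA clusters in red, other clusters in blue and black bars for the mean ± SD of 3 samples. The y axes do not start at 0. With MMF the blue points lie above all controls in each panel and the red points lie below them for bases and for summit reads.

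Since the control lists chose the clusters, each control list in turn was also kept out of the choice. The 300 clusters chosen on the other pair of control lists held 847, 840 and 830 kb of peaks in the control list kept out and 898, 903 and 920 kb on average in the MMF lists. The small RNA clusters among them, 34, 32 and 30 in number, held 132, 125 and 124 kb in the control list kept out and 118, 115 and 114 kb in the MMF lists. The median rank of the 300 was 156.5, 155.5 and 156.5 in the control list kept out and 163, 163 and 161 with MMF.

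The same reads were taken at all tRNA genes of RefSeq. This choice did not use the peak sizes, but it was made after the data had been seen. It is not independent of the clusters, since 134 of the 211 tRNA elements lie in the 300. Of 386 tRNA genes on chromosomes 1 to 19, 265 had a peak within 1000 bp in all 6 lists. Their median scaled summit reads were 107, 104 and 105 in the controls and 92.4, 90.7 and 91.6 with MMF, a change of −13.1% (p = 0.1 in a two-sided exact permutation test), and 130 genes were lower without overlap and 2 higher. Over all clusters 38.6% were higher and 5.08% lower in summit reads. These shares are not like for like, since a cluster averages its elements and counts a missing MMF peak as 0. The tRNA genes counted had a peak in all 6 lists. Genes within 1000 bp of the same peak share its value, so counts of genes, here and for snRNA, can hold a peak more than once. Without division by the background the samples overlapped, with 65 to 78 reads in the controls and 62 to 84 with MMF (exact permutation p = 0.8), and as multiples of the median element outside the 300 clusters the change was −32.9%. At 92 snRNA genes with a peak in all lists the medians were 114 ± 4.50 and 94.2 ± 4.14, with 54 genes lower and 5 higher, and unscaled reads overlapped there too. At 34 rRNA genes the medians were 35.8 ± 0.982 and 38.1 ± 2.59 and overlapped, but as multiples of the median element outside the 300 clusters they were lower without overlap, by a change of −17.8% (exact permutation p = 0.1).

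The largest cluster shows the difference by sample. Over the tRNA genes near Fcgr3, peaks covered 9271, 8980 and 9052 bp in the controls and 8496, 8598 and 8180 bp with MMF, and scaled summit reads were 149, 158 and 157 against 128, 131 and 131. Both measures were lower in every MMF sample, and the cluster kept rank 2 by bases in all 6 lists. The U3 cluster in Tex14 had summit reads of 211, 209.7 and 209 against 140.3, 148 and 156. The Eapp cluster went from 183 ± 2.76 to 127 ± 4.38, and the 5S rRNA array from 38.0 ± 0.473 to 39.5 ± 0.474, the other way. The copy of mitochondrial DNA rose to 9593 ± 266 and the copy of rDNA fell to 8385 ± 274. The Pdia4 and Ezh2 clusters, whose summit reads were as high as those of small RNA clusters, went from 257 ± 3.24 to 228 ± 6.46 and from 241 ± 9.69 to 215 ± 8.66.

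**Figure D3:**
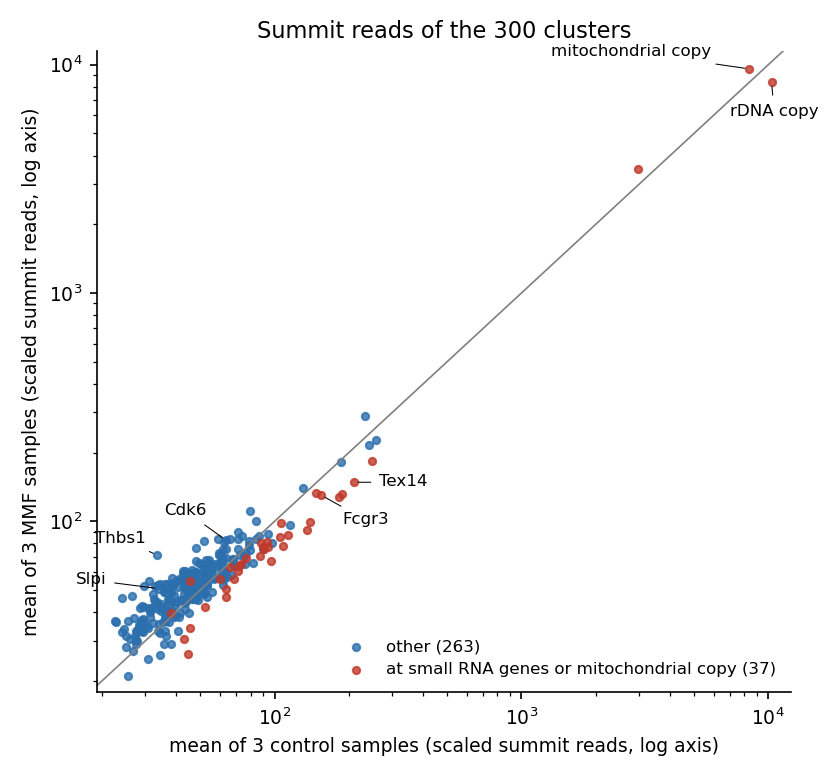
Scaled summit reads of each of the 300 clusters, mean of 3 control samples (x axis, log scale) against mean of 3 MMF samples (y axis, log scale), with the line of equal values. Of the 37 small RNA clusters in red 33 lie below the line, and Thbs1, Cdk6 and Slpi lie above it.

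Genes were assigned to a cluster where it overlapped the gene body, and otherwise by the nearest start, for 188 and 112 clusters. The median distance to a start was 7.83 kb, 93 clusters had a start inside and 31 lay over 50 kb away. The 300 clusters had 359 genes, 1.73% of 20780 coding genes, and 16 of 222 genes of lists drawn up for these cells and this treatment. The lists of erythroid, B cell and non-blood markers had none, nor had the 7 transcription factors of the stem and progenitor heptad. No test was made on these counts.

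Of 25 regulators that MLL-AF9 is known to target, Cdk6 and Runx2 had a cluster. Cdk6, a cyclin-dependent kinase that leukemias with MLL fusions depend on, had 7 elements in its gene body. Its peaks covered 2587, 2473 and 2176 bp in the controls and 2874, 2863 and 2698 bp with MMF, without overlap, and its summit reads rose from 63.7 ± 3.37 to 82.6 ± 2.49. The study found less Cdk6 mRNA with MMF in LSCs by quantitative PCR, which measures RNA and not open chromatin. Runx2, a Runt factor, had overlapping bases and summit reads of 37.5 ± 2.48 and 44.6 ± 2.71. No call on a single gene was tested. These summit reads are means over the elements of a cluster. Over all elements of the clusters other than small RNA clusters, the mean rose by 11.1%, from 48.7 ± 0.484 to 54.1 ± 1.19. The median element rose by 21.5%.

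Of 25 myeloid transcription factors and regulators, Runx3, Cebpb and Zfp36l2 had a cluster. Runx3, a Runt factor of blood cells, had a pair, at rank 29 at 22.4 kb from its start and at rank 102 over its body. The first had 5032, 4191 and 4371 bp under peaks in the controls and 5586, 5041 and 4834 bp with MMF, which overlapped, and its rank rose from 18.3 to 9.67 on average without overlap. Cebpb, a driver of granulocyte and macrophage genes, was the nearest start to the cluster of rank 62, but 65.0 kb away. Its summit reads were 73.6, 76.9 and 70.9 in the controls and 79.7, 86.4 and 92.1 with MMF, all higher. The Zfp36l2 cluster rose in bases from 5144 ± 71.6 to 5892 ± 313 and in rank from 10.7 to 5.33, but its strongest element, printed above, went from 54.6 ± 5.41 to 35.5 ± 1.43 in summit reads.

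Of 20 growth factor receptors and surface antigens, Fcgr3, Cd47 and Cxcr4 had a cluster. The Cd47 cluster held 4513, 4456 and 4403 bp under peaks in the controls and 4348, 4406 and 4577 bp with MMF, which overlapped. Its summit reads were 54.7 ± 3.18 and 56.9 ± 0.324. Cxcr4, the receptor that holds progenitors in the marrow, had 1832 ± 150 and 1873 ± 210 bp, also with overlap.

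Of 12 genes of primary granules, Slpi, a protease inhibitor of neutrophils, had a cluster. It held 2211, 2140 and 2117 bp in the controls and 2713, 2785 and 2664 bp with MMF. Its rank rose from 240.0 to 139 and its summit reads from 34.0 ± 2.81 to 50.7 ± 1.79, all without overlap. Of 20 genes of mature granulocytes and monocytes, Itgb2, the beta chain of the leukocyte integrins, had a cluster that rose from 1929 ± 139 to 2343 ± 179 bp and in summit reads from 36.8, 39.1 and 33.9 to 48.0, 52.9 and 49.0. The Slpi and Itgb2 clusters moved in the same direction as the mature myeloid promoters given above, but so did many others. Among the 263 clusters other than small RNA clusters, 131 (49.8%) were higher in summit reads and 15 lower.

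Of 12 AP-1 genes, Fos and Fosb had a cluster. The Fos cluster held 2202, 2074 and 2163 bp in the controls and 2684, 2245 and 2442 bp with MMF, and that of Fosb went from 2128 ± 52.1 to 2287 ± 90.9 bp, both without overlap. Of 13 purine genes, Adssl1, an adenylosuccinate synthase, had a cluster, shared with Inf2, whose bases overlapped and whose mean rank went from 133 to 226 without overlap. Of 17 genes of the menin and MLL complexes, Dot1l, the H3K79 methyltransferase, had one with 2968 ± 83.0 and 2966 ± 272 bp. Klrb1c, an NK cell receptor, was the nearest start to a cluster that went from 1946, 1933 and 2361 bp to 1856, 1886 and 1828 bp, without overlap. The number of peaks in this cluster was higher in all MMF lists than in all control lists, and its summit reads overlapped.

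The largest ratio of summit reads belonged to the cluster of rank 42, 2.12-fold on the mean of 3 samples. Its nearest start, 99.3 kb away, was that of Thbs1, thrombospondin, one of 33 genes on the autosomes from a list that the study drew from its own MMF-treated cells, so it is not independent of MMF. The summit reads of the cluster were 31.1, 35.6 and 33.7 in the controls and 71.1, 75.6 and 66.7 with MMF. Its peaks covered 3517 ± 107 and 3981 ± 244 bp. The number of peaks was 9, 9 and 10 in the controls and 10 in each MMF list, so the rise lay in the height of the peaks and not in their number. The element printed above went from 52.1 ± 3.61 to 110.5 ± 5.06.

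**Figure D4:**
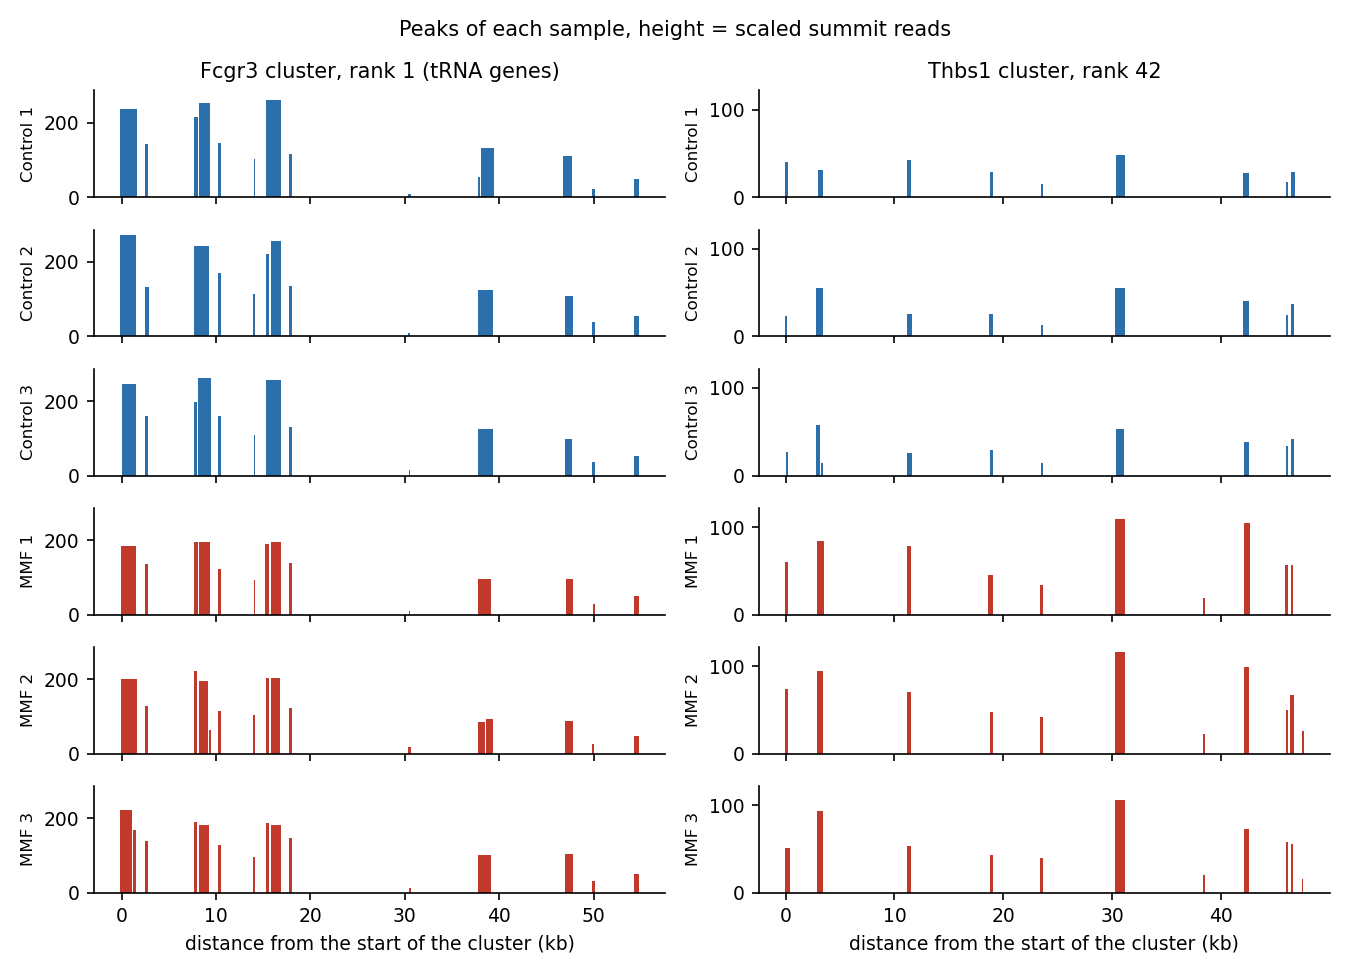
Peaks of each of the 6 samples along the Fcgr3 cluster (left) and the Thbs1 cluster (right), as bars over the distance from the start of the cluster (x axis, kb) with the scaled summit reads as height (y axis), controls in blue and MMF in red. The tall bars at the left lie lower in the MMF samples, and those at the right lie higher, at the same positions.

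Among the 24 clusters whose rank rose without overlap, the mean rank rose most at Stx11, a syntaxin of secretory granules, from 418 to 227. Rnd1, a small GTPase, went from 319 to 177, Abcc4, a transporter, from 366 to 232, and Pfkfb3, a regulator of glycolysis, from 258 to 147. The Stx11 cluster is a small RNA cluster with 1 tRNA gene, the only one of the 37 whose rank rose in this way.

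Among the 59 clusters whose rank fell without overlap, 22 were small RNA clusters, and these included the 5 that fell most. The cluster near Fcgr1, with 4 tRNA genes and 1 snRNA gene, fell from mean rank 217.5 to 1163. Its peaks covered 2653, 1905 and 2303 bp in the controls and 1334, 1536 and 1306 bp with MMF, and its summit reads went from 44.5 ± 2.35 to 26.3 ± 1.84. A second cluster in Tex14, with the U1 gene Rnu1a1, fell from 203 to 934. The cluster at Parp16 with the U5 gene Rnu5g fell from 529 to 1117, that near Vmn1r223 with 6 tRNA genes from 378 to 965, and that at Gm12184 and Trim7 with 4 tRNA genes from 331 to 838.

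The same rule applied to the 3 MMF lists gave 26788 clusters. Of the 300 control clusters, 178 (59.3%) touched one of the 300 largest MMF clusters, and 176 of the latter (58.7%) touched one of the former. Small RNA clusters made up 37 of the 300 in the controls and 19 with MMF. The smallest of the 300 held 1578 bp in the controls and 2150 bp with MMF, so a small RNA cluster of unchanged size can leave the 300. The 124 MMF clusters that touched none of the 300 were chosen for their size in the MMF lists, so their higher values there are a description. They were led by one near Zfp217, a zinc finger repressor, with rank 13 among MMF clusters and 4192, 4212 and 4357 bp under peaks in the controls against 6734, 6221 and 6756 bp with MMF. In the control lists it fell into smaller clusters, the best at rank 1072. The next were at Htra4 and Plekha2, which overlapped in bases, at Mapkapk2, a stress kinase, with 3281 ± 275 and 4706 ± 295 bp, at Por, the reductase of cytochromes P450, with 3829 ± 201 and 4916 ± 710 bp, and near Tomm20, a receptor of mitochondrial import, with 3557 ± 247 and 4702 ± 303 bp.

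Regions of all lists within the 300 spans, merged where they touched, numbered 2270, and 1656 (73.0%) were in all 6 lists, against 29.8% outside. The clusters were built from regions of all 3 control lists, which raises this share and lowers that of regions in MMF lists only, so nothing is read from these contrasts. Of these regions 60 (2.64%) were in all MMF lists and in no control list, and 10 (0.441%) were the reverse. Over all regions away from starts, these shares were 6.71% and 0.197%. No cluster gained more than 2 regions, and the 2 that did lay at Fkbp5, a glucocorticoid-induced chaperone, and Mpeg1, the perforin of macrophages. These 2 were chosen after their values had been seen.

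For single regions that all 6 lists share, peaks were ordered by fold enrichment within each list, the ranks were turned into normal scores, and the scores were compared with limma. Benjamini-Hochberg adjustment ran over 41184 regions, with calls at an adjusted p of 0.05. Inside the 300 clusters 62 of 1656 regions were higher with MMF (3.74%) and 5 lower (0.302%), against 5.83% higher and 0.185% lower over all regions. The median difference was 0.12 inside and 0.17 score units over all regions. With lists of equal length the median over all regions was −0.10, and 12 of 1505 regions inside were higher and 47 lower, against 1.64% and 1.6%. With log2 scaled summit reads in place of ranks, 280 were higher and 36 lower, against 18.6% and 0.969%, and of these the small RNA clusters had 9 higher and 22 lower of 203 regions. With any single MMF sample left out there were no calls by limma (smallest adjusted p 0.0518 to 0.0736), although 291 to 310 regions inside had an unadjusted p under 0.05.

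The 5 regions with the smallest adjusted p among those that were higher included chr4:134607734-134608137 near Man1c1, a Golgi mannosidase. Its scaled summit reads were 12.3 ± 1.15 in the controls and 52.6 ± 4.75 with MMF (score difference 1.93 ± 0.158 SE, limma adjusted p = 0.0150). A region near Cd300e, a receptor of monocytes, went from 10.3 ± 0.862 to 41.8 ± 5.94 (limma adjusted p = 0.0150), and one near Rnf169, a ubiquitin ligase, from 13.7 ± 1.92 to 42.4 ± 5.09 (limma adjusted p = 0.0151). The other two, in the Eapp cluster and the 5S rRNA array, rose in mean percentile of fold enrichment from 0.325 and 1.58 to 17.4 and 26.2. Fold enrichment is measured against the local background. The summit reads of the Eapp region were 132 ± 6.91 and 112 ± 11.6, and those of the 5S region 28.0 ± 1.68 and 42.3 ± 1.04. On log2 summit reads the 5S region was called higher (limma adjusted p = 0.0240) and the Eapp region was not called (limma adjusted p = 0.363).

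The 5 regions that were lower lay near Lcp1, an actin-bundling protein of leukocytes, Sept9, a septin, Idh2, the mitochondrial isocitrate dehydrogenase, Rnf169 and Trim27. The region near Lcp1 went from 71.3 ± 6.02 to 57.7 ± 1.70 in summit reads (score difference −1.23 ± 0.178 SE, limma adjusted p = 0.0191). These p-values belong to the ranks by fold enrichment. On log2 summit reads the regions near Lcp1, Sept9 and Idh2 were not called (limma adjusted p = 0.222, 0.0656 and 0.0928). That near Trim27, in a tRNA cluster, went from 94.1 ± 1.37 to 56.0 ± 5.88 (limma adjusted p = 0.0496). The Rnf169 cluster held both a region that was higher and one that was lower, which went from 20.6, 23.1 and 24.2 to 9.90, 14.2 and 11.8.

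Motifs were counted as exact letters on either strand in 200 bp around the best control summit. These were GAGGAAGT for PU.1, AACCACA for RUNX, TTGCNNAA for C/EBP, TGANTCA for AP-1, AGATAAG for GATA factors, CACGTG for the E-box, CCAAT for NF-Y, TGATTNAT for HOX and MEIS, AGGGGGC for the CTCF core and GGTTCGA for the tRNA B box, where N is any base. Matches of different motifs were allowed to overlap. In the 1652 elements of the clusters other than small RNA clusters, C/EBP letters were in 17.1%, AP-1 letters in 21.8%, PU.1 letters in 9.32% and RUNX letters in 10.4%. Outside the 300 clusters, in 30718 elements, these shares were 16.7%, 21.6%, 9.60% and 13.0%. CTCF core letters were in 7.81% and 6.57%, E-box letters in 5.75% and 4.49%, NF-Y letters in 363 elements of these clusters and in 21.8% of those outside, HOX and MEIS letters in 3.39% and 3.57%, and GATA letters in 2.12% and 2.15%. The median GC content of these windows was 52.5% and 49.5%.

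The elements of the small RNA clusters differed from both. Of 239, 35.6% held the B box letters, against 0.484% and 0.352% in the other 2 sets, and 62.7% of the 134 tRNA elements of the 300 clusters did. As a measure of how much these letters can show, 59.3% of the 386 RefSeq tRNA genes hold them. PU.1 letters were in 2.09% and AP-1 letters in 5.44% of the elements of the small RNA clusters.

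**Figure D5:**
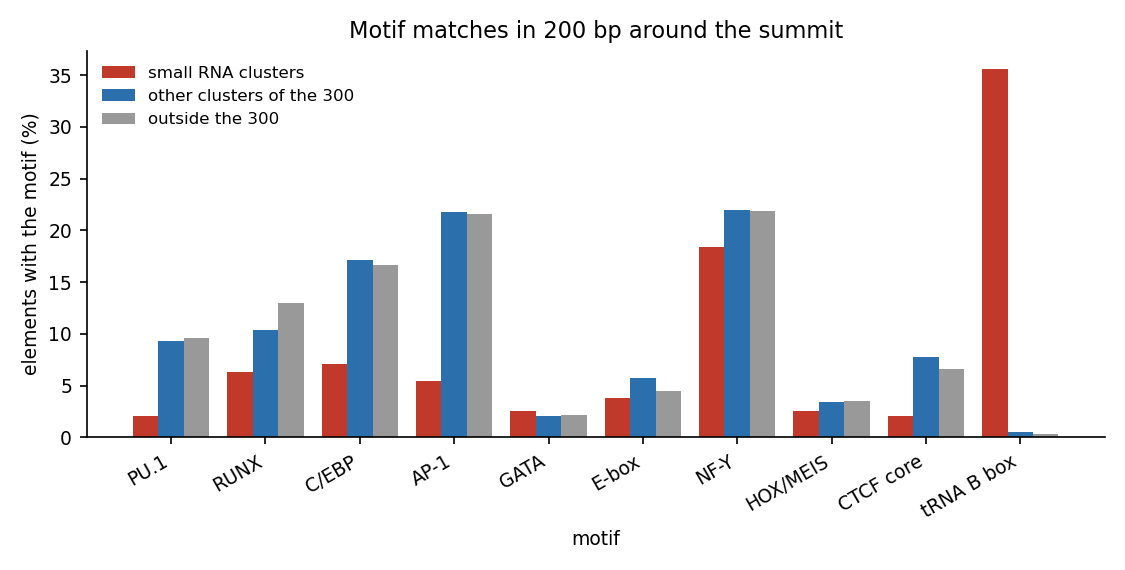
Share of elements (y axis, percent) with the letters of each motif (x axis) in 200 bp around the summit, for the small RNA clusters (red), the other clusters of the 300 (blue) and the elements outside (grey). The B box stands at 35.6% in red and below 1% in blue and grey, and blue and grey bars are close for the other motifs.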

How the data were processed

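The authors trimmed the ATAC-seq reads with Trim Galore, mapped them to mm10 with Bowtie2 and called peaks with MACS2 on each sample, and deposited 1 peak list per sample. Versions and options are not given in the sources used here. In the deposited lists, the fold enrichment is a ratio of summit reads to local background, p-values and q-values stand as −log10, and the score was not used. The total reads per library were not used, so depth is known only through the background. Coordinates match GRCm38, and RefSeq sequences and small RNA genes are of GRCm38.p6.

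Peaks were read for all 6 samples, 3 per group. Whole summit reads and local background were solved from the fold enrichment and the −log10 p of each peak, which gave whole reads within 0.05 for at least 99.998% of the peaks of a list. They were divided by the background of the sample per 150 bp. A peak counted in a cluster at an overlap of 1 bp. An element was a mitochondrial copy where over 50% of its 31-base words occur in the mitochondrial genome. A cluster was called higher or lower where all 3 MMF values lay above or below all 3 control values. The tests on regions used limma 3.58.1 in R 4.3.3, the other steps used Python 3.11.15 with pandas 2.3.3, NumPy 2.4.6, SciPy 1.17.1 and pysam 0.24.0, and the cluster building, the solving of reads and the limma fit were tested on simulated data. Alternatives were lists of equal length, a −log10 q of at least 2, merged unions, other distances, gaps and rankings, and each sample left out. The members, the gene lists and the genes named were chosen with earlier results of these data known: the 20 largest clusters, genes of the lists, the 5 clusters that rose and the 5 that fell most in rank, the 5 largest MMF clusters outside the 300, the 5 regions of smallest adjusted p per direction and the clusters at the limit. Of the clusters that rose most in rank, 1 is not reported here.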

Additional observations from a re-analysis of the deposited data

How the results depend on the processing

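How far the 300 clusters depend on the rule shows in how many of them touched one of the 300 chosen under another setting, which ran from 125 with gaps of 5 kb and 126 with nothing dropped around starts to 295 with a −log10 q of at least 2. Of 213 alternative values, 63 moved by over 1.5 times, or for the tRNA genes by more than the spread. The overlap with the 300 largest MMF clusters stayed within 1.5 times of 178 throughout (154 to 195 with a sample left out). With lists of equal length, peaks were higher in 6 and lower in 16 clusters and bases higher in 29. With gaps of 5 kb, peaks were higher in 10 and lower in 2, bases higher in 20 and lower in 65, and summit reads higher in 66 and lower in 72, with 44 of the latter among 65 small RNA clusters. With gaps of 25 kb, peaks were higher in 101 and lower in 1, bases higher in 122 and lower in 13, and 17 of 22 small RNA clusters were lower in summit reads. With nothing dropped around starts, peaks were higher in 57 and summit reads higher in 57 and lower in 80. Ranked by number of elements, bases were lower in 12, rank rose in 37 and fell in 36, and 16 of 20 small RNA clusters were lower in summit reads. Ranked by bases times fold enrichment, peaks were lower in 2 and summit reads in 66. With small RNA elements dropped, an alternative added after the data had been seen, peaks were lower in 2, bases in 13 and summit reads in 17, and with lncRNA starts dropped as well in 2, 13 and 15.

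With a sample left out, peaks were higher in 42 to 54 clusters and lower in 4 to 7, bases higher in 67 to 98 and lower in 32 to 44, rank rose in 27 to 39 and fell in 79 to 82, summit reads were higher in 142 to 166 and lower in 42 to 51, and 22 to 30 small RNA clusters were lower. Fewer samples per group make calls without overlap more likely by construction. The change at tRNA genes ran from −13.5% to −12.4%, but was −2.33% without scaling and −32.9% against the elements outside. By limma, 18 regions inside were higher and 1 lower with the replicate number as a block, 280 and 36 with summit reads, 148 and 10 by −log10 p, 12 and 47 with equal lists, and 0 to 41 and 0 to 4 with a sample left out, with no calls left when any MMF sample was out. The replicate numbers were not taken as pairs: samples of the same number deviated together with correlations of 0.00416 to 0.00785, under 0.1, although each sample correlated best with its own number. Assigning genes by the midpoint of a cluster left 16 list genes. Peak lists hold only what passed the caller, so an element without a peak is not shown to be closed, although it entered the scaled summit reads as 0.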

Other observations

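Elements of the clusters other than small RNA clusters were also compared by motif, after the other results had been seen. Elements without a peak in a list counted as 0 here too, which lowers the MMF values only. The 129 elements with CTCF core letters, the letters of an insulator factor, had mean scaled summit reads of 42.9 ± 1.00 in the controls and 41.4 ± 0.956 with MMF (SD, n = 3 samples per group), a ratio of 0.966. The 1523 elements without these letters went from 49.2 ± 0.451 to 55.2 ± 1.30, a ratio of 1.12. Outside the 300 clusters the ratios were 1.01 for 2018 elements with the letters and 1.12 for those without. For C/EBP letters the ratio was 1.14 with and 1.10 without in the clusters, and 1.36 with and 1.08 without outside them. Elements with PU.1 letters went from 48.6 ± 0.245 to 58.5 ± 1.36 in the clusters, and those without from 48.7 ± 0.549 to 53.7 ± 1.23. Of the other motifs in the clusters, GATA letters had a ratio of 1.26 in 35 elements, RUNX letters 1.19 in 172, HOX and MEIS letters 1.16 in 56, AP-1 letters 1.12 in 360, NF-Y letters 1.11 in 363, E-box letters 1.09 in 95 and B box letters 0.977 in 8, with 1.10 to 1.11 in the elements without each. These ratios are descriptions without a test.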
